A study of Mus musculus with 6 samples.

Results

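Lung lineage transcription factors are the DNA-binding proteins that set up and maintain the cell types of the lung, and 10 of them, Nkx2-1, Foxa1, Foxa2, Gata6, Cebpa, Etv5, Foxf1, Tbx4, Tbx5 and Epas1, were followed here in leptin-deficient mice given leptin or saline. The members were taken by gene symbol, as the probe sets whose platform annotation gives 1 symbol that is among these 10. The rule found 13 probe sets of 22626, for 10 genes of 12393. Of these genes, 7 had 1 probe set, and Gata6, Etv5 and Tbx5 had 2 each.

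The samples were whole lungs of female mice of strain B6.V-Lepob/J, aged 1 month. All carry the ob mutation of the leptin gene, so the saline group lacks functional leptin as well, and no group with an intact gene was analysed here. Total RNA of 3 leptin-treated and 3 saline-treated animals was hybridised to Affymetrix Mouse 430A arrays, with 1 animal per array according to the labels. Neither dose nor route nor duration of treatment is stated in these sources.

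In the lung, the homeodomain protein NKX2-1 marks the epithelium from the start of lung development and acts on the surfactant protein genes. The forkhead proteins FOXA1 and FOXA2 open chromatin in endoderm and work with NKX2-1, GATA6, C/EBPalpha and ETV5 in the alveolar epithelium. FOXF1, TBX4 and TBX5 act in the mesenchyme, and EPAS1, the oxygen-regulated subunit also called HIF-2alpha, acts in endothelium and in alveolar type II cells, which make surfactant.

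The array of saline replicate 1 stood apart, and it is kept apart below. Its log2 values correlated at 0.438 to 0.447 with the other 5 arrays, against 0.973 to 0.978 among those 5 (Pearson's r over all probe sets of an array, a description since probe sets do not replicate each other). The 10th percentile of intensity was 57.1 on it and 16.4 to 19.3 on the others. Y-linked genes read higher there, though the mice are labelled female. Uty read 1108.1 there and 12.7 to 67.3 on the others for 1 probe set, and 301.9 against 20.9 to 72.5 for another. Eif2s3y read 84.9 against 1.2 to 3.4. The median of that array was 323.75, and 54.6% of all probe sets read above the other arrays on it. These readings therefore do not settle the sex of that animal. Xist, transcribed from an inactive X chromosome, read 578.0 there against 1055.2 to 1553.0 for 1 probe set. It read 7896.0 against 2697.3 to 3645.6 for another, and 275.6 against 122.3 to 260.3 for the remaining one. On the other 5 arrays the tissue label was borne out, as 9 alveolar type II markers had a median percentile rank of 99.8 within each array. On saline replicate 1 their median rank was also high, at 96.4. The 2 fits used are therefore a fit on 5 arrays, 3 leptin and 2 saline, and a fit on all 6.

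No lung lineage transcription factor passed the test for a difference between leptin and saline in either fit. On the 5 arrays, 0 of 13 member probe sets had a limma adjusted p under 0.05, where 0.0442% of all 15838 tested probe sets did (7, and 0 with the replicate numbers as a block). With all 6 arrays the counts were 0 of 13 members and 0% of 15837 probe sets. At an unadjusted limma threshold of 0.05 there was 1 of 13 on 5 arrays, Cebpa, against 4.56% of all probe sets, and 0 of 13 on 6 arrays, against 0.366%. The series' own stated rule, a change of at least 1.5-fold in at least 6 of 9 pairwise comparisons with p under 0.05, also gave 0 of 13 on 6 arrays. Its counterpart on 5 arrays, with 4 of 6 comparisons, gave 0 of 13. Over all probe sets the rule gave 0.177% and 0.511%.

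Differences are on the log2(intensity + 22.1) scale, which understates the change of dim probe sets such as that of Nkx2-1. On the 5 arrays they ran from -0.30 for Cebpa to 0.85 for Nkx2-1 (log2, leptin minus saline), with a median of 0.01, beside a median of 0.00 over all probe sets tested. Of 13 member probe sets 7 were positive, against 50.2% of all, and 1, Nkx2-1, differed by at least 1.5-fold, against 2.31%. On 6 arrays 9 were positive, against 49.7%, and 2, Foxa1 and 1450082_s_at of Etv5, differed by at least 1.5-fold, against 39.4%. Groups without overlap numbered 0 of 13 on 6 arrays, where 9.1% of all probe sets had them. For 10 of 13 member probe sets the 95% interval of the difference lay wholly within 1.5-fold in both directions, as it did for 58% of all probe sets tested. On 6 arrays this was so for 0 of 13 and for 0.41% of all. The exceptions on 5 arrays were Nkx2-1, 1 probe set of Etv5 and 1 of Tbx5. The plots of the values on each array and of the differences show that saline replicate 1 widened all of these intervals.

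**Figure D1:**
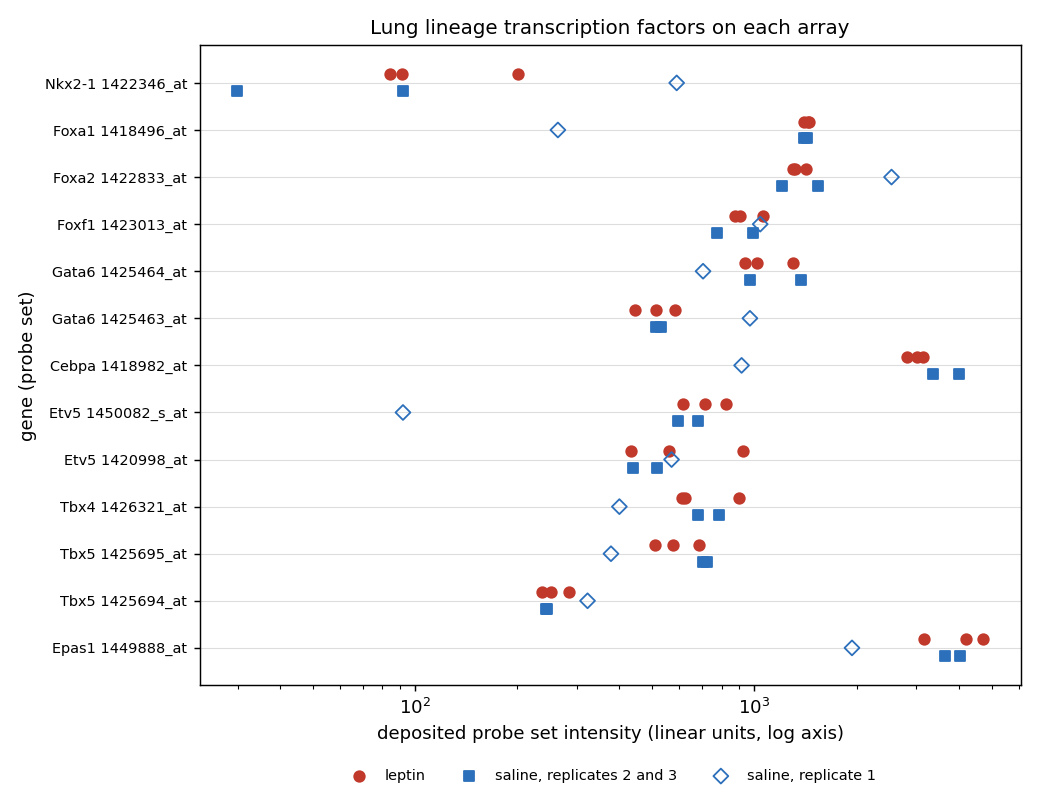
Deposited probe set intensity (linear units on a log axis) of the 13 probe sets of the 10 transcription factors, 1 point per array, with leptin as red circles, saline replicates 2 and 3 as blue squares and saline replicate 1 as open diamonds. The 5 arrays other than saline replicate 1 lie close together for Foxa1, between 1399.8 and 1443.3, and spread from 29.9 to 201.6 for Nkx2-1.

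**Figure D2:**
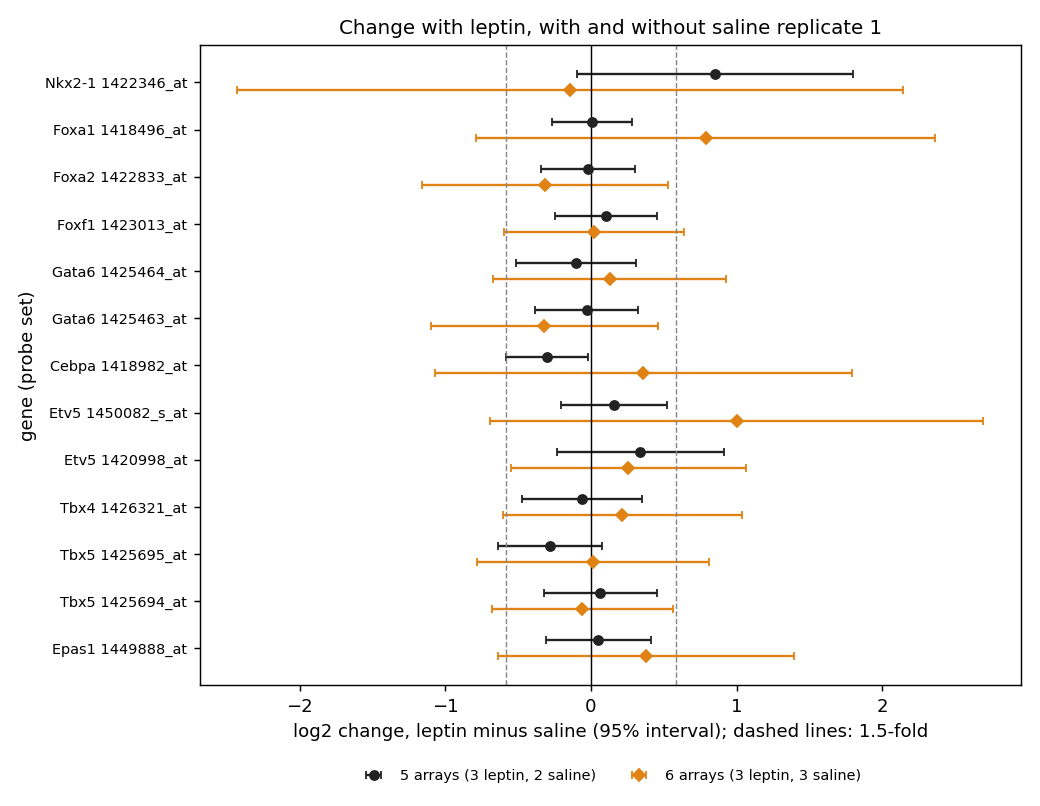
Difference between leptin and saline for each probe set (log2, leptin minus saline) with its 95% limma interval, from the fit on 5 arrays in black and on 6 arrays in orange. Dashed lines mark a 1.5-fold change, and 10 of the 13 black intervals but 0 of the 13 orange ones lie between them.

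Among the factors that set epithelial identity, Nkx2-1 (Entrez Gene 21869) had the largest difference and the poorest measurement. Its 1 probe set gave intensities of 91.6, 201.6 and 84.3 in leptin-treated lungs, and saline replicates 2 and 3 gave 92.3 and 29.9. The groups overlapped, leptin replicate 2 was the highest and saline replicate 3 the lowest of the 5, and the remaining arrays lay within 84.3 to 92.3. The difference was 0.85 ± 0.43 (log2 ± SE, n = 3 and 2), with a 95% interval from 0.94-fold to 3.48-fold and a limma adjusted p of 0.999 (0.0725 unadjusted). The probe set was dim, since its mean of 99.9 lay just above the filter at 95.6 and it ranked between percentile 15.2 and 47.4 within those arrays. Among all tested probe sets its spread over the 5 arrays (SD of log2 values, 0.75) was at percentile 99.3. Without saline replicate 3 the difference was 0.28, without saline replicate 2 it was 1.42, and without leptin replicate 2 the probe set fell below the filter. With the replicate numbers as a block it was 1.00, with a limma p of 0.0103 unadjusted and 0.625 adjusted, from the pairs numbered 2 and 3 alone.

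On saline replicate 1 Nkx2-1 read 589.9, 5.90 times the mean of the other 5, and including that array turned the difference to -0.14 ± 0.95. NKX2-1 is also made in the thyroid. Of 4 thyroid markers on the array 2 passed the filter, Tg (thyroglobulin) and Pax8, and their summed intensity was 230 to 307 with leptin, against 275 and 317 for saline replicates 2 and 3, and 1752 on saline replicate 1. On saline replicate 1, 54.6% of all probe sets read above the other 5 arrays and 33.8% below them. Its 10th percentile of intensity was 57.1, against 16.4 to 19.3 on those arrays. The part of thyroid signal in the Nkx2-1 value was not tested.

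Foxa1 (15375), a forkhead factor of endoderm, was the steadiest member. It read 1399.8, 1436.1 and 1443.3 with leptin, against 1403.6 and 1429.5 for saline replicates 2 and 3, so that the arrays of the groups interleaved. Their log2 SD of 0.02 was at percentile 0.0316 among tested probe sets, a place noticed after the values were seen. The difference was 0.01 ± 0.12 (log2 ± SE; interval from 0.83-fold to 1.22-fold; limma adjusted p = 0.999). Saline replicate 1 read 263.5, and with it the difference was 0.79 ± 0.65 (limma adjusted p = 0.707).

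Foxa2 (15376), which overlaps with Foxa1 in function, read 1314.8, 1419.6 and 1297.8 with leptin, against 1202.4 and 1538.4 for saline replicates 2 and 3. The saline arrays were the lowest and the highest of the 5, with the leptin arrays between them. The difference was -0.02 ± 0.15 (log2 ± SE; interval from 0.79-fold to 1.23-fold). On saline replicate 1 the gene read 2534.2, above each of the other arrays, whereas Foxa1 lay below each of them there. With that array the difference was -0.31 ± 0.35.

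Gata6 (14465), a zinc finger factor of distal epithelium that also acts in heart and smooth muscle, had 2 probe sets. Probe set 1425464_at read 1016.1, 1300.8 and 936.9 with leptin, against 1369.5 and 972.9 for saline replicates 2 and 3, and 1425463_at read 583.8, 511.5 and 444.4 against 529.5 and 512.8. The groups overlapped in both. The differences were -0.10 ± 0.19 and -0.03 ± 0.16 (log2 ± SE). On saline replicate 1 the probe sets parted, the first reading 705.5, below the other arrays, and the second 969.7, above them. With that array included their differences had opposite signs, at 0.13 ± 0.33 and -0.32 ± 0.32.

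Cebpa (12606), the leucine zipper factor of alveolar type II maturation and of lipid-storing and myeloid cells, was lower on each leptin array than on saline replicates 2 and 3, though it did not pass the adjusted test. It read 2809.4, 3005.0 and 3134.1 with leptin, against 3357.2 and 4018.4 for saline replicates 2 and 3, or 2983 ± 163 (SD, n = 3) against 3688 ± 468 (SD, n = 2). Groups without overlap were found for 2 of 13 member probe sets, Cebpa and 1 of Tbx5, and for 19.6% of all probe sets tested. The difference was -0.30 ± 0.13 (log2 ± SE), with an interval from 0.67-fold to 0.99-fold and a limma p of 0.0382 unadjusted and 0.999 adjusted.

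Much of this difference rested on saline replicate 3, the highest array. Without it the difference was -0.17 (limma adjusted p = 1.00, 0.339 unadjusted), and without any other 1 of the 5 arrays it lay between -0.43 and -0.26. With the replicate numbers as a block it was -0.26 (limma adjusted p = 0.688, 0.0543 unadjusted). The unadjusted limma p was also above 0.05 after scaling to a common median, at 0.0612, and without the variance trend over probe sets, at 0.0893. On saline replicate 1 Cebpa read 916.3, so that including it turned the sign, to 0.36 ± 0.59.

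Markers of cells that express Cebpa are given beside it as sums and signs, without a test of the lists. The summed intensity of 9 alveolar type II markers was 122479 to 134494 with leptin, against 137244 and 137403 for saline replicates 2 and 3, without overlap, and 7 of 9 were negative, 1 of them at an unadjusted limma threshold of 0.05. It was 17958 on saline replicate 1. That of 7 club cell markers was 104397 to 115033 against 118412 and 118916, and all 7 were negative, 0 of them at that threshold. The 9 macrophage and neutrophil markers went the other way, at 12639 to 14874 against 12460 and 11764, with 9 of 9 positive, 1 of them at that threshold. On saline replicate 1 their sum was 106382, of which Csf1r alone gave 93803.4. Chil3 and Mrc1 read below the other arrays there, S100a9 within their range and the rest above. The 5 adipocyte markers overlapped, at 7694 to 9074 against 8416 and 9867, and so did 3 liver markers, at 849 to 883 against 835 and 896. Of the adipocyte markers 3 were positive, 1 of them at that unadjusted threshold. Of the liver markers 1 was positive, and 0 passed it in either direction. Of all single probe sets tested on the 5 arrays, 50.2% were positive and 19.6% had groups without overlap. An unadjusted limma threshold of 0.05 was passed by 4.56% of them in either direction. No marker of these lists passed the adjusted threshold, and the part of these cells in the Cebpa value was not tested. In whole lung, fewer cells of a type and less RNA per cell cannot be told apart.

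Etv5 (104156), an ETS family factor downstream of FGF signalling that maintains type II cells, had 2 probe sets that differed in steadiness. Probe set 1450082_s_at read 826.0, 615.9 and 713.6 with leptin, against 593.5 and 683.0 for saline replicates 2 and 3. Probe set 1420998_at read 925.1, 561.5 and 432.3 against 438.9 and 517.5. In both the groups overlapped and leptin replicate 1 was the highest array. The differences were 0.16 ± 0.16 and 0.34 ± 0.26 (log2 ± SE; limma adjusted p = 0.999 for both). Without leptin replicate 1 they were 0.06 and 0.05, and without leptin replicate 3, 0.16 and 0.58.

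Saline replicate 1 separated the Etv5 probe sets more than those of any other member with 2. There 1450082_s_at read 92.1, where the mean of the other 5 was 7.45 times higher, and 1420998_at read 569.8, within their range. The ratio of the first to the second was 0.162 on that array and 0.893 to 1.65 on the others. With 6 arrays the differences were 1.00 ± 0.70 and 0.26 ± 0.34.

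RefSeq sequences before the start site were found for 6 of the 10 members, in 9 windows of 250 bases (GRCm38.p6). Those of Cebpa, 1 of the 2 members with a probe set without overlap between groups on the 5 arrays, and of the first window of Etv5, which holds the most motif matches, are shown 5′ to 3′ on the gene's strand. Both lie directly before the RefSeq start of the gene, Cebpa at chr7:35119043-35119292 on the plus strand and Etv5 at chr16:22439571-22439820 on the minus strand. Capitals mark matches to the motifs searched.
Cebpa: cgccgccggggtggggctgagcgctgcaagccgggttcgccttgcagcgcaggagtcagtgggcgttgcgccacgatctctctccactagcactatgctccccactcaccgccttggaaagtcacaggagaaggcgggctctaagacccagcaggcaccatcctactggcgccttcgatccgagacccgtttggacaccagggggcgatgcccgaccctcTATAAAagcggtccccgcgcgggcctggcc
Etv5: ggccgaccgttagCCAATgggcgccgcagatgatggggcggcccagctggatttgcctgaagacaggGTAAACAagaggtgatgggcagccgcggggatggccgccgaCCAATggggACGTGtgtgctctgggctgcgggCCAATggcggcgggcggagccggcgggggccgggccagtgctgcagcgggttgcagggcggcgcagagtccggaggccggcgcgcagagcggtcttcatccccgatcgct

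The search covered 9 motifs on both strands, and each is given with its share of all 32851 windows of this length. A TATA box (TATAAA) was in 12.4% of them. A CCAAT box, searched as its name spells it, was in 33.8%. The forkhead motif TGTTTAC was in 3.17%. The hypoxia response core ACGTG was in 16.6%. The GATA motif AGATAA was in 9.99%. For NKX2-1 the letters CTCAAG were searched, found in 13.3% of windows. For ETS factors CCGGAAG was found in 6.91%. For T-box factors GGTGTGA was found in 3.33%. For C/EBP proteins TTGCGNAA was found in 0.67%. The Cebpa window held 1 match, a TATA box that begins 30 bases before the start. The first Etv5 window held 3 CCAAT boxes, 1 forkhead match on the opposite strand and 1 hypoxia response core, with no overlap among them. Foxa1 held a forkhead match and a CCAAT box, Tbx4 a TATA box, and the 3 windows of Foxa2 a CCAAT box, a TATA box, a GATA match and an overlapping NKX2-1 match. The Nkx2-1 window held none. The array data measure no binding, and these matches are descriptions of the letters alone.

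Among the mesenchymal factors, Foxf1 (15227), a target of hedgehog signalling that acts in mesenchyme and pulmonary capillaries, read 1059.3, 904.6 and 878.8 with leptin, against 990.5 and 777.7 for saline replicates 2 and 3. The groups overlapped, and the difference was 0.10 ± 0.16 (log2 ± SE; interval from 0.84-fold to 1.37-fold). Foxf1 and the 1420998_at probe set of Etv5 were the 2 of 13 probe sets that stayed within the range of the other arrays on saline replicate 1. Foxf1 read 1039.8 there, and the difference with 6 arrays was 0.02 ± 0.26.

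Tbx4 (21387), a T-box factor of lung mesenchyme, read 898.2, 611.2 and 623.6 with leptin, against 786.0 and 681.9 for saline replicates 2 and 3. Leptin replicate 1 was the highest array and the other leptin arrays were the lowest. The difference was -0.06 ± 0.19 (log2 ± SE; interval from 0.72-fold to 1.27-fold), and it was -0.24 without leptin replicate 1. Saline replicate 1 read 399.9, below the other arrays, and with it the difference was 0.22 ± 0.34.

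Tbx5 (21388), which works with Tbx4 and is also a factor of the heart, had 2 probe sets that went opposite ways. Probe set 1425695_at read 509.2, 576.2 and 685.7 with leptin, against 726.2 and 707.2 for saline replicates 2 and 3, without overlap. Lower values with leptin without overlap were measured for 9.69% of all probe sets tested. The difference was -0.28 ± 0.16 (log2 ± SE; interval from 0.64-fold to 1.05-fold; limma adjusted p = 0.999, 0.110 unadjusted). Probe set 1425694_at read 284.2, 251.9 and 235.9 against 243.5 and 245.3, overlapping, at 0.06 ± 0.17.

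The signs of both Tbx5 probe sets turned when saline replicate 1, at 377.7 and 322.2, was included, to 0.01 ± 0.33 and -0.06 ± 0.26. Cardiac muscle of the pulmonary veins is another source of Tbx5 and Gata6 in lung samples. The summed intensity of 10 cardiac muscle markers was 18243 to 24413 with leptin, against 22822 and 21494 for saline replicates 2 and 3, so that it overlapped, with 3 of 10 positive. On saline replicate 1 the sum was lower, at 15756. Myh6, a myosin heavy chain of cardiac muscle, read 1484.9 to 2244.0 on the other 5 arrays and 9448.3 on saline replicate 1. Of the list only Myh6 and Ryr2 read above the other arrays there, and the rest read below them. The part of cardiac muscle in the Tbx5 values was not tested.

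Markers of the mesenchyme itself were mostly positive on the 5 arrays, where 50.2% of all probe sets were. Of 10 fibroblast markers 8 were positive (median 0.31, summed intensity 57716 to 60537 against 54947 and 49773), and of 8 smooth muscle markers 7 were (median 0.23, 9946 to 11788 against 9064 and 9184), with 5 and 2 higher at an unadjusted limma threshold of 0.05, which 4.56% of all probe sets passed in either direction, and no marker past the adjusted one. The mesenchymal factors had no shared direction beside them.

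Epas1 (13819) read 4720.6, 4196.9 and 3164.3 with leptin, against 4046.4 and 3637.9 for saline replicates 2 and 3. The groups overlapped, with leptin replicate 1 highest and leptin replicate 3 lowest. The difference was 0.05 ± 0.16 (log2 ± SE; interval from 0.81-fold to 1.33-fold; limma adjusted p = 0.999). Saline replicate 1 read 1938.0, and with it the difference was 0.38 ± 0.42. Of 12 endothelial markers 8 were positive (median 0.07), with summed intensities of 29020 to 32526 against 29780 and 29466.

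Saline replicate 1 did not move the factors one way. Of 13 member probe sets, 7 read below all other arrays on it and 4 above them, whereas 33.8% of all probe sets were below and 54.6% above. Ranks within the array, which need no scaling between arrays, also went both ways. Foxa1 fell from percentile 89.3 to 89.6 on the other arrays to 44.4, and 1450082_s_at of Etv5 from 73.8 to 80.7 down to 19.5. Nkx2-1 stood at 68.8 and Foxa2 at 97.0, against 87.1 to 90.3 for Foxa2 on the others. Epas1 stood at 95.5 there against 96.4 to 98.1 elsewhere, and Foxf1 at 86.2 against 79.7 to 85.4. The 1420998_at probe set of Etv5, at 67.6, stayed within its range of 66.5 to 83.0. Intensity and rank differed for 1425694_at of Tbx5, which read above all other arrays but ranked below them, at 49.8 against 51.4 to 54.7, and Foxf1 was within their range by intensity and above it by rank.

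**Figure D3:**
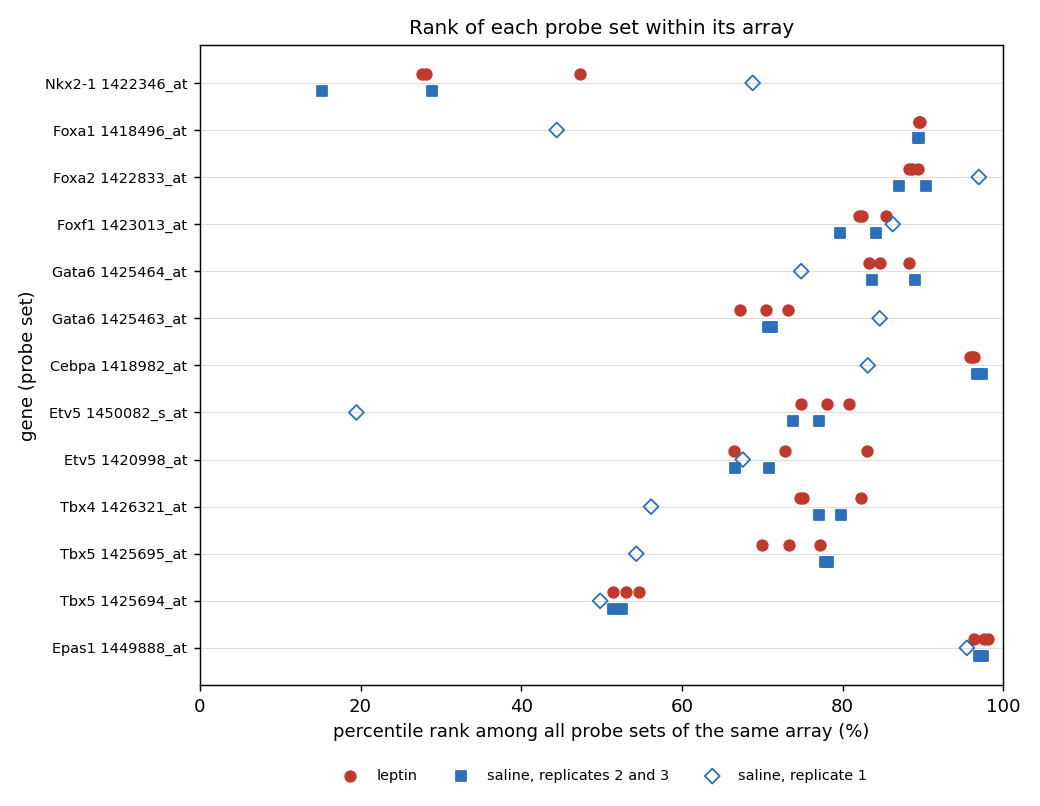
Percentile rank of each of the 13 probe sets among all 22626 probe sets of the same array (horizontal axis, percent), 1 point per array, with leptin as red circles, saline replicates 2 and 3 as blue squares and saline replicate 1 as open diamonds. On saline replicate 1 Foxa1 ranks at 44.4 and Foxa2 at 97.0, while on the other 5 arrays both lie between 87.1 and 90.3.

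Genes around these factors were taken from 4 lists, and no gene of any list passed the adjusted limma threshold on the 5 arrays. Of 33 tested other lung transcription factors, 17 were positive, beside 50.2% of all probe sets tested, and the median difference was 0.02. The smallest p-values were those of Mycn, a growth-promoting MYC family factor of distal progenitors, and Hes1, a Notch target. Mycn read 50.5, 93.7 and 101.8 with leptin, against 226.5 and 149.9 for saline replicates 2 and 3, at -1.03 ± 0.31 (limma adjusted p = 0.909). Its second probe set, 146.9, 72.7 and 79.9 against 122.6 and 93.5, overlapped between the groups. Hes1 read 875.1, 1049.8 and 885.4 against 708.7 and 692.1, at 0.40 ± 0.14 (limma adjusted p = 0.999).

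Epithelial genes that NKX2-1, the FOXA proteins, GATA6, C/EBPalpha and ETV5 are known to act on were negative in 14 of 18, with a median of -0.10. Of all probe sets tested on the 5 arrays, 50.2% were positive. The epithelial list is not independent of the markers given beside Cebpa. It shares Sftpa1, Sftpb, Sftpc, Sftpd, Lpcat1, Slc34a2, Abca3 and Napsa with the type II markers, and Scgb1a1 and Scgb3a2 with the club cell markers. Scd1, a fatty acid desaturase, was at -0.30 ± 0.10 and Sftpb, the surfactant protein needed for lamellar body formation, at -0.22 ± 0.10 (limma adjusted p = 0.971 and 0.999). In this list 0 genes were higher and 2 of 18 lower at an unadjusted limma threshold of 0.05, which 4.56% of all probe sets passed in either direction. With 6 arrays 16 of 18 were positive, at a median of 1.00, against 49.7% and a median of -0.0066 over all probe sets tested. The summed intensity of the list was 100187 on saline replicate 1. It was 209009 to 233730 with leptin, and 236426 and 234973 for saline replicates 2 and 3.

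Genes downstream of EPAS1 and FOXF1 were positive in 10 of 15, with a median of 0.06, where 50.2% of all probe sets tested were positive. At an unadjusted limma threshold of 0.05, 2 of 15 were higher and 0 lower, where 4.56% of all probe sets passed in either direction. Kdr, Flt1, Tek, Pecam1 and Cdh5 are also among the endothelial markers given beside Epas1. Vegfa, the main endothelial growth factor and a hypoxia target, read 2093.3, 2127.4 and 2207.4 with leptin, against 1800.4 and 1603.3 for saline replicates 2 and 3, at 0.33 ± 0.12, and its receptor Kdr was at 0.35 ± 0.16. Both had a limma adjusted p of 0.999.

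Signals that surround TBX4, TBX5, FOXF1 and ETV5, namely FGF, BMP, Wnt and hedgehog genes, were positive in 7 of 14, with a median of -0.01. Wnt2, a mesenchymal ligand of early lung specification, read 309.7, 332.0 and 346.0 with leptin, against 461.0 and 436.6 for saline replicates 2 and 3, at -0.42 ± 0.15. Wnt5a was at 0.41 ± 0.24, with a limma adjusted p of 0.999 for both. Alveolar type I markers, positive in 5 of 8 (median 0.03), and ciliated cell markers, positive in 4 of 5 (median 0.09), likewise held no gene past the threshold.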

How the data were processed

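Affymetrix Mouse 430A arrays of 6 lungs were measured by the authors. Each deposited value is an intensity on a linear scale, 1 per probe set and array. The software that summarised the probes is not given in the sources used here. The trimmed mean, without the lowest and highest 2%, was 500.10 to 500.14 on each array, so arrays had been scaled to a common level. After leaving out 64 control probe sets, 22626 remained, of which 20380 have 1 symbol, 691 several and 1555 none. Symbols were compared by Entrez Gene ID with a RefSeq table (GRCm38.p6), which changed 0 members.

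Values were turned into log2(intensity + 22.1), 22.1 being their 10th percentile, which understates changes of dim probe sets. The lowest 30% by mean were filtered out. Tests used limma 3.58.1 in R 4.3.3 (lmFit, eBayes with trend, two-sided) with Benjamini-Hochberg adjustment over all tested probe sets. For list genes the brightest probe set was used. The series names no test for its rule, so its p came from a pooled-variance comparison of the log2 values. For arrays, their number limits the precision. The p-values and SEs rest on the spread between these animals, with each probe set's variance drawn toward the trend over all probe sets. For Foxa1 the SE was thus 0.12, although the log2 SD over the 5 arrays was 0.02. The fits were run on simulated data whose noise was drawn from the 5 arrays other than saline replicate 1. That simulation therefore does not cover an array like saline replicate 1.

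The labels do not say that replicate numbers pair animals. Deviations of same-numbered arrays correlated at 0.147, 0.105 and 0.105 across probe sets and those of different number at -0.149 to 0.0481. Each same-number value was over 0.1. The comparison included saline replicate 1, which stood apart, and probe sets do not replicate each other. These correlations therefore cannot decide whether the numbers pair animals. The main tests, SEs and intervals do not use the numbers, and the block is an alternative. A block fit is given where it moves a p across 0.05. Members and lists were chosen with earlier results of these data known. The naming rule takes all member probe sets and, of each pathway list, genes past the threshold or otherwise the 2 with the smallest p. Alternatives were quantile normalization, a common median, other pseudocounts (1 and 80.1), no filter or one at 50%, the block, no trend, array weights, each array left out, and an adjusted threshold of 0.10.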

Additional observations from a re-analysis of the deposited data

How the results depend on the processing

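No member probe set and no gene of the 4 pathway lists passed the adjusted threshold under any alternative run, in either fit. Over all probe sets, 7 passed on 5 arrays, and 0 passed with the replicate block, without the trend, unfiltered, with pseudocount 1, or after scaling by quantiles or by a common median. With a threshold of 0.10 there were 11, under the series' rule 81, and with 1 more array left out 0 to 3. On 6 arrays 0 passed, against 8 with array weights, 28 under the series' rule and 0 to 7 with 1 array left out.

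On 5 arrays, differences near 0 changed sign: Foxa1 to -0.0067 with a common median, and 1425694_at of Tbx5 to -0.0034 and Epas1 to -0.074 with the replicate block. Leaving out 1 array gave -0.0032 to 0.023 for Foxa1, -0.19 to 0.16 for Foxa2, -0.067 to 0.27 for Foxf1, -0.34 to 0.14 and -0.12 to 0.066 for Gata6 (1425464_at and 1425463_at), -0.24 to 0.036 for Tbx4, -0.0034 to 0.12 for 1425694_at of Tbx5 and -0.074 to 0.21 for Epas1. Cebpa (-0.43 to -0.17), 1425695_at of Tbx5 (-0.39 to -0.18), Nkx2-1 (0.28 to 1.42) and both Etv5 probe sets kept their sign.

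On 6 arrays, array weights turned Nkx2-1 to 0.75, Foxa2 to 0.024, 1425464_at of Gata6 to -0.14, Cebpa to -0.26, Tbx4 to -0.10, and 1425695_at and 1425694_at of Tbx5 to -0.27 and 0.058. Quantile normalization turned Foxf1 to -0.012 and 1425694_at of Tbx5 to 0.088, and a common median turned Nkx2-1 to 0.019 and 1425694_at of Tbx5 to 0.087, while the median of all probe sets became 0.16. Leaving out 1 array gave -0.93 to 0.85 for Nkx2-1, -0.10 to 0.10 for Foxf1, -0.10 to 0.37 for 1425464_at of Gata6, -0.30 to 0.75 for Cebpa, -0.036 to 0.49 for 1420998_at of Etv5, -0.063 to 0.41 for Tbx4, and -0.28 to 0.17 and -0.13 to 0.065 for 1425695_at and 1425694_at of Tbx5. The causes were not tested. Nkx2-1 was below the filter at 50% in both fits, and 1425694_at of Tbx5 in the fit on 6 arrays.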

Other observations

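Probe sets of 1 gene did not keep a fixed ratio. For Gata6, 1425464_at over 1425463_at was 1.74 to 2.59 on the 5 arrays and 0.728 on saline replicate 1. For Tbx5, 1425695_at over 1425694_at was 1.79, 2.29 and 2.91 with leptin, against 2.98 and 2.88 for saline replicates 2 and 3, and 1.17 on saline replicate 1. Among all 13 member probe sets, the spread over the 5 arrays (SD of log2 values) ran from 0.02 for Foxa1 to 0.75 for Nkx2-1, with 0.43 for 1420998_at of Etv5, beside a median of 0.19 over all probe sets tested.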
